A study of Mus musculus with 15 samples.

Results

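The rows 0610010B08Rik, 6230416C02Rik, Gm14306 and Gm14405 are 4 of the 26628 gene rows of the expression table, and they were taken by symbol because they belong to a cluster of zinc finger genes on distal chromosome 2. They were chosen by their expression differences between the mouse lines, so those differences are described below and were not tested. The table profiled the cerebellum (Ce) and the striatum (St) of male Hsd:ICR mice, an outbred stock, labelled 6 weeks old and housed for 7 days with a running wheel. The mice came from a line bred for high voluntary wheel running (Hi) or from an unselected control line (Co). This gave 4 CeCo, 4 CeHi, 4 StCo and 3 StHi samples, each from an individual mouse. Whether the same mouse gave a Ce and a St sample is not stated in the sources used here. The study had removed a StHi sample that deviated from its group in a principal component analysis. The StHi spread and the separation of StCo and StHi below are those of the samples kept. One selected and one control line were sampled, so a difference between lines is a difference between these lines and cannot be told apart from their separate descent.

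C2H2 zinc finger proteins bind DNA through repeated finger modules, and many of them carry a KRAB box ahead of the fingers. The KRAB box recruits the corepressor Trim28, which brings the histone methyltransferase Setdb1 and HP1 proteins to the bound site and silences it, a role best known for transposable elements. Genes of this family arise by tandem duplication, so neighbours in a young cluster can be near copies of each other, and the distal part of mouse chromosome 2 holds such a cluster.

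In RefSeq (GRCm38.p6) the 4 rows matched only 3 current genes. The row 0610010B08Rik is an older symbol of Gm2026, a protein coding gene on the plus strand at chr2:175965250-175981734, just below the lower bound given for the cluster. The rows 6230416C02Rik and Gm14306 are both older symbols of Zfp973, a protein coding gene on the plus strand at chr2:176670522-176681090. The row Gm14405 keeps its symbol and is a transcribed pseudogene on the minus strand at chr2:176852792-176864437. Zfp973 was thus listed as 2 rows, whose boundaries in the annotation behind the table are not given in the sources used here. In GENCODE M21, a Zfp973 transcript marked for nonsense-mediated decay runs into the neighbouring gene Gm14305, and 251 of the 2709 exonic bases of Zfp973 overlap exons of Gm14305 on the same strand.

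The promoters of Gm2026 and Zfp973 were close copies. They are shown because the rows of these genes lay on opposite sides of the line comparison, and their regulatory function was not tested. Over the 250 bases ahead of the start used by the promoter table, which is chr2:175965355 for Gm2026 and so lies inside the gene span given above, and chr2:176670522 for Zfp973, the pair aligned without a gap for 192 bases, of which 180 (93.8%) were identical. The sequences are from RefSeq (GRCm38.p6, plus strand), with the 12 differing bases in capitals. The Gm2026 stretch is chr2:175965105-175965296 and the Zfp973 stretch is chr2:176670330-176670521, which ends at the base before that start.
Gm2026 promoter: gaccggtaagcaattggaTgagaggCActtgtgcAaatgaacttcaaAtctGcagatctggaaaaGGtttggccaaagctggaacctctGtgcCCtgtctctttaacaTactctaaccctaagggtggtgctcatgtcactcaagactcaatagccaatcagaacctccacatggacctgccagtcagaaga
Zfp973 promoter: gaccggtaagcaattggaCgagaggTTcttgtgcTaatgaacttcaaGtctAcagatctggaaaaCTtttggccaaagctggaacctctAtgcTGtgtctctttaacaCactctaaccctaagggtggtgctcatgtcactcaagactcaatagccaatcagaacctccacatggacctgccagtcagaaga
The last 83 bases of both stretches were identical. This run of 83 bases was found in the same 250-base window of 19 of 32851 promoters (0.0578%), each belonging to a gene on chromosome 2. No promoter of Gm14405 was examined.

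The transcripts also carried shared coding sequence. The longest run common to Zfp973 and Gm14405 was 133 bases, all of them coding in Zfp973, and it lies ahead of the exon that holds the fingers. In this family the KRAB box is encoded there, and a pattern of the KRAB A box matched the longest reading frame of 5 of the 6 Gm2026 and Zfp973 transcripts and not that of Gm14405. The stretches below are from GENCODE M21 transcripts (GRCm38). They cover chr2:176678584-176678662 joined to chr2:176678869-176678922 in Zfp973, chr2:176855153-176855206 and chr2:176855422-176855500 on the minus strand in Gm14405, and chr2:175976017-175976095 joined to chr2:175976301-175976354 in Gm2026. Capitals mark the 7 bases at which Gm2026 differs from Zfp973.
Zfp973: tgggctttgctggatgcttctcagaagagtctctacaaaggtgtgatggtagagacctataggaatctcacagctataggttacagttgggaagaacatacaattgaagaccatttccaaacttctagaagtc
Gm14405: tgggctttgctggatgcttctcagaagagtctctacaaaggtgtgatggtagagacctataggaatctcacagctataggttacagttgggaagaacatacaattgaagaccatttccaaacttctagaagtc
Gm2026: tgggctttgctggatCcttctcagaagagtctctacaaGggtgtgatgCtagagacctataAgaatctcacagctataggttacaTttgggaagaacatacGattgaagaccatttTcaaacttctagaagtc
Transcripts of 14 of 55341 genes (0.0253%) held the complete run, Zfp973 and Gm14405 among them. Over a longer alignment, Zfp973 and Gm14405 transcripts were 89.2% identical in 1185 bases. Gm2026 and Zfp973 were 94.8% identical in 287 bases, and Gm2026 and Gm14405 were 95.2% identical in 187 bases.

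Most transcript sequence of the 3 genes occurred in other genes as well, less so for Zfp973. Of the distinct 50-base windows of each gene, 98.4% of 2971 windows of Gm2026, 84.7% of 2629 windows of Zfp973 and 97.6% of 2050 windows of Gm14405 were found in transcripts of at least 1 other gene on either strand. With windows of 100 bases, the length of one read of the paired-end libraries, the shares were 95.2%, 73.2% and 94.0%, and 1 Zfp973 transcript, the one that runs into Gm14305, had 66.6% of its windows to itself. Little of this sharing was among the 3 genes themselves, since 141 windows were common to Zfp973 and Gm2026, 127 to Zfp973 and Gm14405, and 19 to Gm2026 and Gm14405. The Gm2026 transcript with a complete reading frame held 13 finger patterns and that of Zfp973 held 6, whereas the longest reading frame of the Gm14405 pseudogene held 0 although 10 patterns were readable over its frames.

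**Figure D1:**
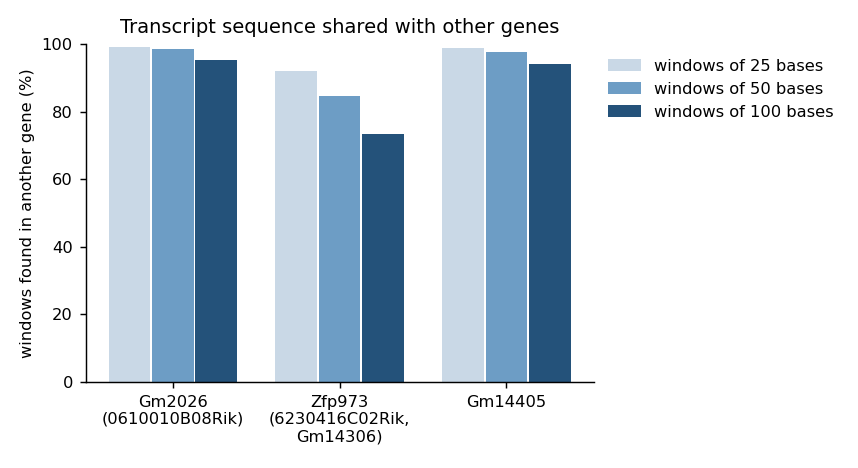
Percent of distinct windows of each gene's GENCODE M21 transcripts that occur in a transcript of another gene, for windows of 25, 50 and 100 bases (bars). Gm2026 and Gm14405 stayed above 90% at each length, while Zfp973 fell from 92.0% to 73.2%.

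The nearest copies of the 3 genes were on chromosome 2, and some were listed with hardly any fragments while others had many. Gm2026 shared at least 5% of its windows with 19 genes, led by Gm14434 with 89.0%, Gm14308 with 87.3%, Gm4724 with 79.2% and Gm14305 with 64.6%. The rows of Gm14434, Gm14308 and Gm4724 reached at most 1 fragment in any sample, whereas Gm14305 averaged 372 normalized counts in CeCo. Gm14295, Gm14325 and Gm14326 averaged 3862, 1839 and 1326 in CeCo, against 23.3 for the row of Gm2026. Of the partners with a row, 5 of 14 for Gm2026, 9 of 15 for Zfp973 and 5 of 8 for Gm14405 had at most 6 fragments. Gm14399 averaged 134, 59.4, 129 and 41.6 in CeCo, CeHi, StCo and StHi, and Gm14403 averaged 460, 1013, 419 and 673. Gm14399 is not among the neighbours tested below. The other partners of Gm2026 were Gm4631, Gm11007, Gm2007, Gm14410, Gm6710, Gm14391, Gm14295, Gm14419, Gm14399, Gm14326, Gm2004, Gm14325, Gm14403, Gm14296 and Zfp931. Zfp973 shared most with Zfp965 (73.4%) and Zfp968 (51.8%), followed by Gm14288, Gm14440, Gm14327, Zfp966, Zfp967, Zfp969, Gm14435, Zfp971, Zfp970, Gm14326, Gm14308, Gm14434, Gm14305, Gm4724, Gm2026 and Gm14410. Gm14405 shared most with Gm1980 (94.4%) and Gm14416 (78.6%), followed by Gm14387, Gm14421, Zfp966, Gm14288, Gm14440, Gm11008, Zfp968, Gm14400, Zfp967, Zfp969, Zfp971, Zfp965, Zfp970, Gm16363 and Zfp973. Fragments of these genes cannot all be assigned from sequence alone, so every level below is that of a row. A row may include fragments of its copies or lack fragments of its own gene.

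With few exceptions, a value of the table is a fragment count divided by a factor for the sample, and it is not divided by gene length, so levels are compared between samples and not between genes. The members were counted from 14 to 146 fragments per sample, in libraries of 32909442 to 47485501 fragments. All 60 member values were whole numbers of fragments within 0.05, against 99.4% of 51873 values of all genes in the same range of fragments. All 4 rows passed the filter of at least 1 CPM in 3 samples, which 15213 genes passed. 0610010B08Rik passed it only through 3 Hi samples, 2 of StHi and 1 of CeHi, where it is high, while the other rows reached 1 CPM in 12 or 13 samples. In the tissue check, 8 of 8 cerebellar markers were higher in each Ce sample than in each St sample, and 8 of 8 striatal markers were higher in each St sample than in each Ce sample. Choroid plexus markers, which can enter a dissection, summed to 1479 to 114019 normalized counts in CeCo, 1157 to 110339 in CeHi, 243 to 762 in StCo and 733 to 16090 in StHi, and their part in the results was not tested. The 4 cortical markers summed to 25442 to 30632 in CeCo, 24350 to 27958 in CeHi, 32773 to 48772 in StCo and 17219 to 37114 in StHi. Of these 4 markers, 3 were higher in each St sample than in each Ce sample, which the sums do not show. The part of cortical tissue in the sums was not tested.

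Across the 4 groups, the rows of Zfp973 and Gm14405 were highest in CeCo and lowest in StHi, and the row of Gm2026 had its highest mean in StHi and its lowest in StCo. Gm14306, a row of the protein coding gene Zfp973, had normalized counts of 84.8, 130, 113 and 115 in CeCo and of 60.5, 58.0, 47.2 and 79.3 in CeHi. It had 55.5, 93.0, 63.0 and 58.5 in StCo and 37.6, 34.0 and 35.6 in StHi. The Co samples lay above the Hi samples in each region with no overlap. The CeCo samples averaged 111 ± 18.9 (SD, n = 4), the CeHi samples 61.3 ± 13.3 (n = 4), the StCo samples 67.5 ± 17.3 (n = 4) and the StHi samples 35.7 ± 1.82 (n = 3). Co over Hi, its log2(fold change) was 0.86 ± 0.19 (SE) in the Ce, against 0.88 ± 0.21 in the St.

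6230416C02Rik, the other row of Zfp973, had 83.9, 121, 114 and 110 in CeCo and 57.2, 38.0, 51.9 and 93.0 in CeHi. It had 54.3, 65.3, 46.2 and 64.9 in StCo and 36.3, 42.7 and 47.5 in StHi. The lines overlapped in both regions, in the Ce because CeHi replicate 3 lay above 1 CeCo sample, and in the St because 1 StHi sample lay above the lowest StCo sample. The means were 107 ± 16.3, 60.0 ± 23.4, 57.7 ± 9.18 and 42.2 ± 5.61 (SD) in CeCo, CeHi, StCo and StHi. Its log2(fold change) of Co over Hi was 0.89 ± 0.22 in the Ce but 0.44 ± 0.24 in the St.

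Gm14405, the transcribed pseudogene, had 67.1, 88.3, 73.4 and 68.6 in CeCo and 52.1, 47.5, 51.9 and 56.0 in CeHi. It had 44.4, 53.4, 49.4 and 43.9 in StCo and 31.1, 31.1 and 39.2 in StHi. As for Gm14306, the Co samples lay above the Hi samples in each region with no overlap. The means were 74.3 ± 9.67, 51.9 ± 3.49, 47.8 ± 4.49 and 33.8 ± 4.67 in the same order. The line difference was nearly equal in the regions, with a log2(fold change) of Co over Hi of 0.51 ± 0.15 in the Ce beside 0.50 ± 0.16 in the St.

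0610010B08Rik, the row of Gm2026, ran the other way. It had 16.8, 30.3, 20.5 and 25.8 in CeCo and 41.2, 26.4, 33.3 and 22.2 in CeHi. It had 17.3, 21.8, 16.8 and 14.6 in StCo and 55.8, 27.2 and 51.1 in StHi. The lines overlapped in the Ce, while each StHi sample lay above each StCo sample. The means were 23.3 ± 5.95, 30.8 ± 8.33, 17.6 ± 2.99 and 44.7 ± 15.3 in the same order. Its log2(fold change) of Co over Hi was -0.37 ± 0.27 in the Ce, against -1.24 ± 0.29 in the St, and StHi replicate 1, at 27.2, was the lowest of its group.

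**Figure D2:**
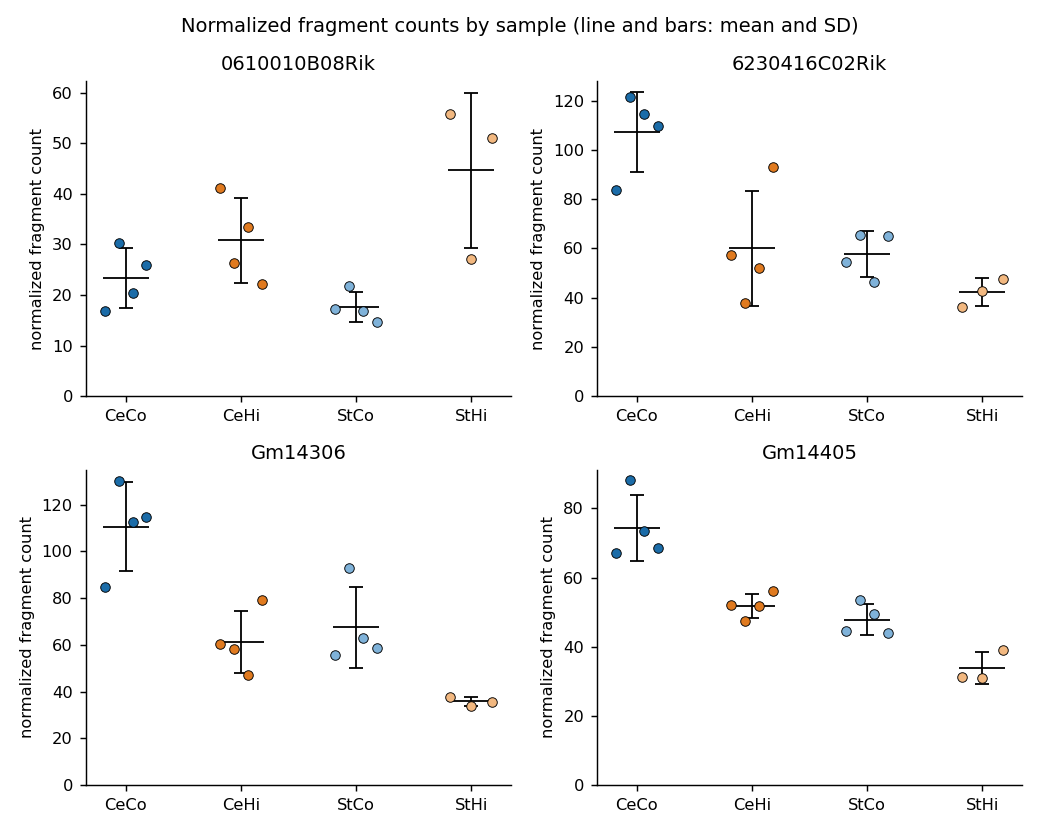
Normalized fragment counts (y axis) of the 4 rows in each sample (points) of CeCo, CeHi, StCo and StHi (x axis), with the mean (line) and SD (bars). Gm14306 and Gm14405 separate the lines in both regions, 0610010B08Rik is higher in StHi than in StCo, and 6230416C02Rik overlaps between the lines.

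Between the lines, the groups did not overlap for 2 of 4 rows in the Ce and for 3 of 4 in the St, against 13.6% and 13.1% of all genes. Because these contrasts chose the rows, the counts describe the choice and nothing is read from them. The difference in line effect between the regions was 0.86 ± 0.40 on the log2 scale for 0610010B08Rik, 0.45 ± 0.33 for 6230416C02Rik, -0.02 ± 0.28 for Gm14306 and 0.01 ± 0.22 for Gm14405. These values were not tested.

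CeHi replicate 3 lay at the end of its group in each row. It was the highest CeHi sample for 6230416C02Rik (93.0), Gm14306 (79.3) and Gm14405 (56.0) and the lowest for 0610010B08Rik (22.2), in no case past the critical value of Dixon's test. Without it, the log2(fold change) of CeCo over CeHi was 1.12 for 6230416C02Rik, 0.98 for Gm14306, 0.55 for Gm14405 and -0.52 for 0610010B08Rik. Over all 15 samples left out singly, it ran from 0.70 to 1.12, from 0.74 to 0.98, from 0.42 to 0.55 and from -0.52 to -0.23 in the same order. The value of 0610010B08Rik was -0.23 without CeHi replicate 0 and -0.24 without CeCo replicate 0. The striatal markers of CeHi replicate 3 summed to 11349 normalized counts, within the CeHi range of 10541 to 11668, whereas the CeCo samples ranged from 8319 to 9782. The part of this difference in striatal markers between CeCo and CeHi in the line comparison was not tested.

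Differences between the regions were not among the values that chose the rows, and they were tested. They use the same samples as the line contrasts that chose the rows, so their P-values are not free of that choice. Called below means an FDR-adjusted P-value under 0.05 in limma, adjusted over all 15213 genes. In the Co line, 3 of 4 rows passed the test, and all 3, which stand for 2 genes, were higher in the Ce, where 37.8% of all genes were called higher in CeCo than in StCo. The log2(fold change) of CeCo over StCo was 0.88 ± 0.22 for 6230416C02Rik (FDR-adjusted P-value of limma = 0.00197), 0.71 ± 0.19 for Gm14306 (0.00304) and 0.62 ± 0.15 for Gm14405 (0.00134). The CeCo samples lay above the StCo samples with no overlap for 6230416C02Rik and Gm14405, 2 of 4 rows where this held for 35.2% of all genes, and overlapped them for Gm14306, in which StCo replicate 1 lay at 93.0. For 0610010B08Rik the value was 0.36 ± 0.27, with an FDR-adjusted P-value of 0.234.

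In the Hi line, Gm14306 and Gm14405 were again higher in the Ce, 2 of 4 rows where 35.4% of all genes were called higher in CeHi than in StHi. The log2(fold change) of CeHi over StHi was 0.73 ± 0.21 for Gm14306 (FDR-adjusted P-value of limma = 0.00472) and 0.60 ± 0.16 for Gm14405 (0.00319), and neither row overlapped between the regions, which held for 34.1% of all genes. For 6230416C02Rik it was 0.43 ± 0.24 with an FDR-adjusted P-value of 0.125, and it dropped to 0.19 without CeHi replicate 3 and rose to 0.62, with an FDR-adjusted P-value of 0.0245, without CeHi replicate 1. For 0610010B08Rik it was -0.50 ± 0.29 with an FDR-adjusted P-value of 0.137, but the row had passed the filter through samples of this contrast in which it is high. The value was -0.82 with an FDR-adjusted P-value of 0.0231 without StHi replicate 1, -0.31 with 0.413 without StHi replicate 0 and -0.05 with 0.889 under quantile normalization. Whether the lines differed in these region effects is the interaction given above, which was not tested for the 4 rows. In these bulk samples, fewer cells that express a gene and less RNA per cell cannot be told apart.

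**Figure D3:**
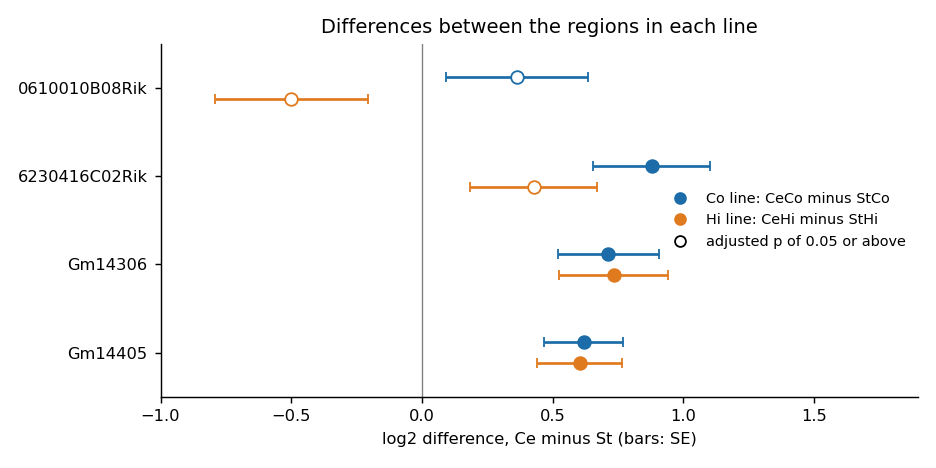
Difference between the regions on the log2 scale, Ce minus St (x axis), for the 4 rows (y axis) in the Co and the Hi line, with SE bars. Filled points passed an FDR-adjusted P-value of 0.05, which Gm14306 and Gm14405 did in both lines and 6230416C02Rik did in the Co line at 0.88.

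The rows of Zfp973 moved together from sample to sample. The ratio of 6230416C02Rik to Gm14306 was between 0.655 and 1.33 over the 15 samples, with a median of 0.978 and values above 1 in 6 samples. Pearson's r over the 15 samples was 0.883 between these rows, 0.930 between Gm14306 and Gm14405, and 0.874 between 6230416C02Rik and Gm14405. After the group means were removed, the values were 0.603, 0.603 and 0.538. The neighbour Gm14305 had an r of 0.835 with 6230416C02Rik and of 0.861 with Gm14306, and of 0.756 and 0.572 after that step. These points share libraries and, for the Zfp973 rows, may share fragments, so the coefficients are descriptions.

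The balance between the row of Gm2026 and the Zfp973 rows differed between the lines, and with Gm14306 the samples of the lines did not overlap in either region. The ratio of 0610010B08Rik to Gm14306 averaged 0.209 ± 0.0237 in the 4 CeCo samples (SD), against 0.530 ± 0.201 in the 4 CeHi samples. It was 0.265 ± 0.0332 (n = 4) in StCo and 1.24 ± 0.381 (n = 3) in StHi. The CeCo ratios ended at 0.233 where the CeHi ratios began at 0.280, and the StCo ratios ended at 0.311 where the StHi ratios began at 0.80. With 6230416C02Rik in place of Gm14306, the ratios overlapped in the Ce, from 0.179 to 0.25 in CeCo and from 0.239 to 0.721 in CeHi, and not in the St, from 0.225 to 0.364 in StCo and from 0.636 to 1.54 in StHi. These ratios combine contrasts used in picking the rows and were not tested. Pearson's r of 0610010B08Rik with the other 3 rows was between -0.444 and -0.343 over the 15 samples and between -0.018 and 0.443 after the group means were removed.

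**Figure D4:**
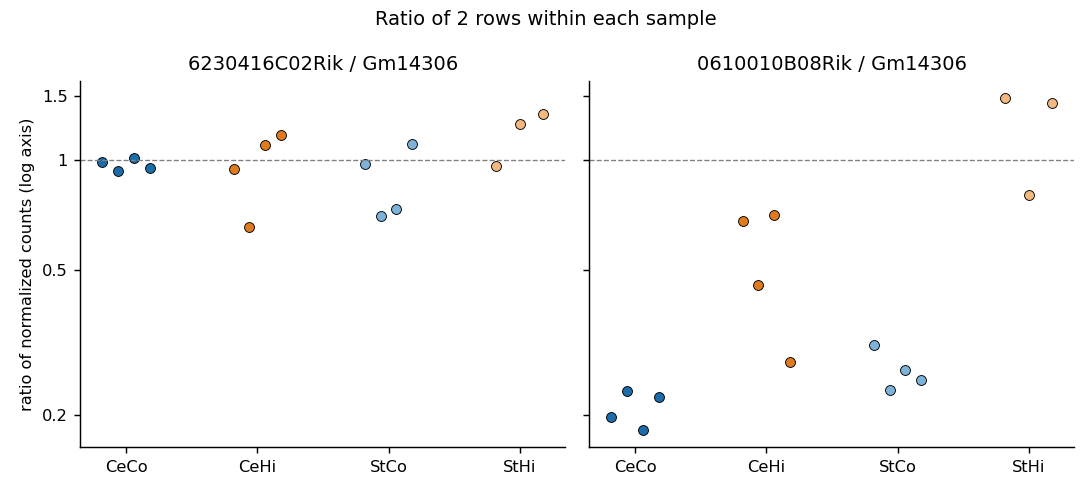
Ratio of normalized counts within each sample (points, log axis) for 6230416C02Rik over Gm14306 (left) and 0610010B08Rik over Gm14306 (right) by group. The left ratios lie around 1 in each group, and the right ratios are from 0.182 to 0.311 in the Co samples and from 0.280 to 1.48 in the Hi samples.

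The genes most alike to each row over the 15 samples, by Pearson's r of log2 values, lay on other chromosomes with the exception of the rows themselves. For 0610010B08Rik they were Sgk1, a serum- and glucocorticoid-inducible kinase (r = 0.849), Nt5dc3 (0.777) and Cyp11a1, the side-chain cleavage enzyme of steroid synthesis (0.768). For 6230416C02Rik they were Dars, the cytosolic aspartyl-tRNA synthetase (0.898), Gm14306 (0.883) and Rhbdf1 (0.881). For Gm14306 they were Proca1 (0.938), Casp9, the initiator caspase of the mitochondrial pathway (0.934), and Gm14405 (0.930). For Gm14405 they were Proca1 (0.963), Ush1g (0.959) and Dnahc7b (0.953). These are the highest coefficients among 15213 genes over 15 samples that share 4 groups, and they are given as descriptions with no p-value.

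Within 1 Mb of the outermost rows, the table listed 23 further genes that could be placed in RefSeq by symbol. Of these 23, 9 had no more than 3 fragments in any sample and 8 passed the filter. Of these 8, 2 passed the line test between CeCo and CeHi, where 5.94% of all genes were called, and 1 of them between StCo and StHi, where 2.66% were called. Both were higher in the Co line. Gm14305 is listed under its gene number and shares 64.6% of the windows of Gm2026. Its exons overlap 251 exonic bases of Zfp973, so its row may share fragments with the chosen rows. Its line test may therefore in part reflect their line differences. The normalized counts of Gm14305 were 328, 443, 352 and 366 in CeCo and 193, 177, 166 and 389 in CeHi. It had 325, 316, 305 and 272 in StCo and 123, 184 and 154 in StHi. The St samples separated fully by line, while CeHi replicate 3 lay within the CeCo range. Its log2(fold change) of Co over Hi was 0.77 ± 0.21 in the Ce (FDR-adjusted P-value of limma = 0.0423) and 1.002 ± 0.228 in the St (0.0259). Without CeHi replicate 3 the Ce value was 1.05, with an FDR-adjusted P-value of 0.000125. Leaving out single samples ended the Ce call in 12 of 15 fits and the St call in 4 of 15, with FDR-adjusted P-values of up to 0.129 and 0.0996. The Ce call also ended with no filter (0.0506), with the Ce groups fitted alone (0.106) and in edgeR (0.0705), and the St call with a replicate block (0.0571).

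Gm14391, a protein coding gene sharing 38.6% of the windows of Gm2026, had 156, 114, 130 and 111 in CeCo and 96.7, 77.0, 80.6 and 66.6 in CeHi. It had 170, 88.0, 150 and 110 in StCo and 85.6, 82.5 and 93.8 in StHi. The Ce samples did not overlap and the St samples did. Its log2(fold change) of Co over Hi was 0.67 ± 0.19 in the Ce (FDR-adjusted P-value of limma = 0.0444) and 0.52 ± 0.20 in the St (0.220). Leaving out single samples ended the Ce call in 10 of 15 fits, with FDR-adjusted P-values of up to 0.139, and so did no filter (0.0585), quantile normalization (0.0697) and sample quality weights (0.0583). The remaining 6 tested neighbours, Gm6710, Gm14295, Gm14420 (now Zfp970), Gm14403, Gm14322 and Gm14325, did not pass the line test in either region, and their log2 differences ran from -1.11 to 0.17 in the Ce and from -0.79 to 0.29 in the St. Between the regions, 3 of 8 passed in each line, Gm14420, Gm14322 and Gm14325, all higher in the Ce, a share of 37.5% beside the 37.8% and 35.4% of all genes given above.

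**Figure D5:**
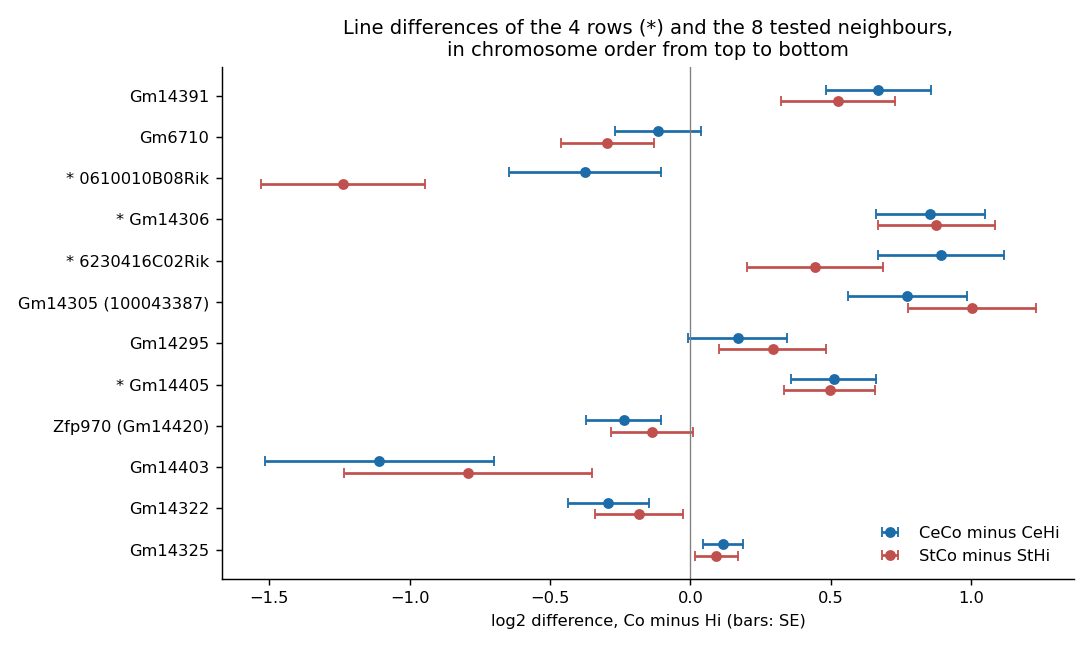
Co minus Hi on the log2 scale with SE bars (x axis) for the 4 rows (asterisks) and the 8 tested neighbours in chromosome order (y axis), in the Ce and the St. Gm14391, Gm14306, 6230416C02Rik, Gm14305, Gm14405, Gm14295 and Gm14325 lie above 0 in both regions. 0610010B08Rik lies below 0 at -0.37 and -1.24. The neighbours Gm6710, Gm14420 (now Zfp970), Gm14403 and Gm14322 also lie below 0 in both regions, Gm14403 at -1.11 and -0.79.

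The partners that KRAB zinc finger proteins use for silencing did not pass the line test. Of 20 partners tested, among them Trim28, Setdb1, Atf7ip, the HP1 genes Cbx1, Cbx3 and Cbx5, and the deacetylases Hdac1 and Hdac2, 0 were called in either region in limma. Of all genes, 5.94% were called between CeCo and CeHi and 2.66% between StCo and StHi, so 0 of 20 is near these shares. At an unadjusted P-value under 0.05, 3 of 20 passed between CeCo and CeHi and 1 of 20 between StCo and StHi, against 19.7% and 14.1% of all genes. edgeR and DESeq2 on recovered fragments also called 0 of 20 in each region. Trim28, the corepressor, had a log2(fold change) of -0.09 ± 0.07 for CeCo over CeHi and -0.13 ± 0.07 for StCo over StHi. Setdb1, the methyltransferase, had -0.01 ± 0.06 and -0.11 ± 0.06.

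Among the 352 tested genes whose symbol is Zfp with a number, 14 were called higher in CeCo and 9 higher in CeHi (6.53% against 5.94% of all genes). In the St, 8 were higher in StCo and 5 higher in StHi (3.69% against 2.66%). Their median log2(fold change) of Co over Hi was 0.05 between CeCo and CeHi and 0.01 between StCo and StHi, against 0.00 for all genes in both.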

How the data were processed

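Paired-end RNA-seq of the Ce and St was mapped by the authors to GRCm38 with TopHat2 and quantified with Cuffnorm 2.2.1, and the annotation is not given in the sources used here. The deposited values are normalized fragment counts, that is signal scaled by a factor for each sample, with no division by transcript length, despite the FPKM in the name of the table. The value of 1 fragment was between 0.841 and 1.30, and 99.6 to 99.8% of low values were whole multiples of it within 0.05, which gave fragments for the count tests. For 5 of the 15 samples this value could not be settled by an independent estimate, so these tests are alternatives only. SEs and P-values measure the spread between the samples of a group.

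Genes with at least 1 CPM in 3 samples were kept (15213, 57.1%). limma 3.58.1 (trend and robust) was fitted to log2(TMM-scaled value + 1) with 4 group means over all 15 samples, and P-values were adjusted by Benjamini-Hochberg over all genes tested. Fold changes are on this scale and understate those of low genes. The fit was also run on simulated counts with the same dispersion for every gene, which does not show how it performs for the 4 rows. edgeR 4.0.16, DESeq2 1.42.0, other pseudocounts, filters and scalings, sample weights, a replicate block and leaving out each sample were alternatives. Residuals of same-numbered CeCo and StCo samples correlated at 0.171 to 0.278, and those of CeHi and StHi at -0.075 to 0.051. Same-numbered samples of different lines, which cannot be the same mouse, ran from -0.221 to 0.183 (CeCo and CeHi) and from -0.043 to 0.196 (StCo and StHi). These values thus do not settle whether the numbers pair samples, and the main fit took all samples as unpaired.

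Genes were matched by symbol to RefSeq (GRCm38.p6), and sequence sharing was counted as distinct windows of GENCODE M21 transcripts, not of merged exons as planned. Protein identity was not computed. The 4 rows, the gene lists and the tests were chosen with earlier results of these data known. Named genes are the 4 rows, neighbours past the line test, genes sharing at least 5% of windows and, for each row, the 3 genes most alike.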

Additional observations from a re-analysis of the deposited data

Results flagged for a closer look

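Gm14305, the neighbour listed under its gene number, had 1 sample far from the others of its group. CeHi replicate 3 lay at 388.9 normalized counts while the other 3 CeHi samples lay between 166 and 193, and the gap exceeded the 95% critical value of Dixon's test for 4 samples. Of 18 groups of 4 samples tested this way, over the 4 rows and the neighbours Gm14305 and Gm14391, 1 passed, and chance passes about 1 in 20. The same sample was the highest CeHi sample for 6230416C02Rik, Gm14306 and Gm14405.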

How the results depend on the processing

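The differences of the 4 rows between lines and regions were recomputed under 28 settings, 440 values in all. None changed direction, 436 kept their side of the threshold or, where not tested, moved by less than the residual SD, and 4 passed the threshold where the reported value had not. With quantile normalization these were 0610010B08Rik between CeCo and StCo (log2 difference 1.17, FDR-adjusted P-value of limma 0.00237, against 0.123 to 0.476 when single samples were left out) and 6230416C02Rik between CeHi and StHi (0.79, FDR-adjusted P-value 0.00704). The other 2 are given above with the sample left out. The cause was not tested.

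The line effect was called for 903 genes between CeCo and CeHi and for 405 between StCo and StHi, and the interaction for 81. Sample quality weights gave 740 in the St and 182 for the interaction, and DESeq2 gave 1389, 709 and 277. Leaving out single samples gave 615 to 952 in the Ce, 272 to 470 in the St, 42 to 117 for the interaction, 11016 to 11489 for the regions in the Co line and 10078 to 10786 in the Hi line. The low interaction counts were 49 without CeCo replicate 0, 53 without CeHi replicate 2, 42 without StHi replicate 1 and 50 without StHi replicate 2. A replicate block gave 948, 374 and 73, and within each line 11394 genes for the regions in the Co line and 10553 in the Hi line, and it changed no call of the 4 rows.

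The share of windows found in other genes was 99.2% for Gm2026, 92.0% for Zfp973 and 98.8% for Gm14405 with 25 bases, and 95.2%, 73.2% and 94.0% with 100 bases, since a shorter window recurs more often. The 60 member values stayed whole at a tolerance of 0.02. With 14 to 49 fragments per value, the row of Gm2026 has the largest counting error of the 4, and fragments shared among copies limit each row.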
